A study of Homo sapiens with 2 samples.

Results

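Cytosolic ribosomal protein genes were examined as a set of housekeeping promoters in a ChIP-Seq experiment for OTX2. They were taken by symbol from the protein-coding genes on chromosomes 1 to 22, and they comprised 77 of 18978 such genes, 31 of the small subunit (RPS) and 46 of the large subunit (RPL). The symbol rule used no measured value. In ChIP-Seq, chromatin is crosslinked and sheared, an antibody enriches the fragments that a protein occupies, and regions where these fragments pile up over the input are called as peaks. The study asked whether genes that respond to OTX2 also carry OTX2 peaks near their start, and its ChIP-Seq part holds 1 OTX2 ChIP library and 1 input library without antibody. Both came from D283, an established medulloblastoma cell line, grown as tumorspheres that the study calls OTX2-high. The study uses that term for its scramble siRNA controls, and whether the cells used for ChIP-Seq received that siRNA could not be traced. There was no library of OTX2 knockdown cells, of an unrelated antibody or of another cell line, so peaks that depend on OTX2 cannot be told apart from other peaks here. With 1 library per group no value has a replicate error, and no test between groups was possible. The intervals of fragments cover counting error only. Those of shares treat genes as independent draws, although all genes were read in the same libraries.

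The ribosome is built from ribosomal RNA and a fixed set of proteins made in nearly equal amounts. The genes of these proteins are active in nearly every dividing cell. Their transcripts characteristically start at a C followed by a run of pyrimidines, the terminal oligopyrimidine tract, through which their translation follows nutrient signalling. OTX2 is a homeodomain transcription factor of the developing brain and retina that recognises the core letters TAATCC and also TAATCT. It is expressed in many Group 3 and Group 4 medulloblastomas.

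An OTX2 peak lay within 1 kb of the transcription start site (TSS) of 69 of the 77 ribosomal protein genes, 89.6% (Wilson 95% interval 80.8% to 94.6%). Among all 18978 genes the share was 48.1%. The TSS was here the 5′ end of the gene record. For 8 members this end lies over 1 kb from the start of the canonical transcript, the transcript that the annotation marks as the representative one. From the canonical start, 72 members had a peak, 93.5%, against 49.8% of all genes. The TSS itself lay inside a peak at 60 members from the gene record, against 31.5% of all genes, and at 69 members from the canonical start, against 33.0%. Small subunit genes carried a peak in 29 of 31 cases by either start. Large subunit genes carried one in 40 of 46 cases from the gene record and in 43 of 46 from the canonical start.

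Promoter sequences were available for the canonical start of 58 members (RefSeq, GRCh38.p14), each from 250 bases before the start to 50 bases from it on. The OTX2 core letters stood in 6 of them on either strand, TAATCC in 5 and TAATCT in 1. This was 10.3% of the members searched, against 9.72% of 13883 promoters of all genes. TAATCC alone stood in 8.62% of members against 5.17%, and TAATCT in 1.72% against 5.09%. The 6 are shown because the distance from the peak summit to these letters can be read for each. They are printed 5′ to 3′ in the direction of the gene, with the OTX2 letters in capitals; RPL4 holds them on the other strand, as GGATTA. RPS6 is at chr9:19380317-19380376 (minus strand), RPS15 at chr19:1438230-1438289 (plus), RPL35A at chr3:197950130-197950189 (plus) and RPL14 at chr3:40457097-40457156 (plus). RPL4 is at chr15:66505050-66505079 (minus) and RPL37A at chr2:216498624-216498653 (plus). All 6 stretches lie upstream of the start, those of RPL4 and RPL37A inside annotated exons of the neighbouring transcripts ZWILCH and RPL37A-DT.
RPS6: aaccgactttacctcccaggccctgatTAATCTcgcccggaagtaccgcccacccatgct
RPS15: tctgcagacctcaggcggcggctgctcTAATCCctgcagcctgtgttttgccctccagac
RPL4: ctcgccccctatGGATTAttccgcaaaaag
RPL35A: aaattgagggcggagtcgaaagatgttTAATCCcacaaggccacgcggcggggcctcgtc
RPL37A: atatatgtgaaaTAATCCggacatgcttct
RPL14: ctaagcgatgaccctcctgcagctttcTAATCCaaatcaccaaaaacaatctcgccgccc

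In 4 of these 6 promoters the summit of the tallest peak fell within 25 bp of the centre of the OTX2 letters. The distance was 2 bp at RPS6, the protein phosphorylated by the S6 kinases, where 128 fragments were counted at the summit with a fold enrichment of 18.6 over the local input. At RPS15, a protein of the head of the small subunit, it was 5 bp, with 155 fragments and a fold enrichment of 23.1. At RPL4, which lines the exit tunnel, it was 11 bp, with 127 fragments and a fold enrichment of 11.8. At RPL35A, mutated in some families with Diamond-Blackfan anemia, it was 22 bp, with 123 fragments and a fold enrichment of 13.1. RPL37A had its summit 63 bp away with 61 fragments, and RPL14 594 bp away with 26 fragments, the fewest of any member from the canonical start apart from RPL39L. Of all searched promoters, 55.7% with TAATCC had a peak against 52.4% without it. For TAATCT the shares were 44.4% with it and 53.0% without it. Across all searched promoters with either of these OTX2 letters and a peak, the summit lay within 25 bp in 311 of 684, 45.5%. Those 311 peaks had a median fold enrichment of 10.7, and the rest of the 684 had 7.11. For the letters CCGGAA, counted in the same way, the summit lay within 25 bp in 9 of 32 members (28.1%) and in 14.9% of 2420 promoters of all genes. RPS6 counts under both, as its summit was also 11 bp from CCGGAA. Most peaks at the ribosomal protein genes searched had no OTX2 core letters in the window: 49 members carried a peak without them, with a median fold enrichment of 7.81. Of these 49, 13 (26.5%) reached 10-fold or more. Among all genes with a peak it was 17.3%, a share that also counts genes with these letters and genes not searched. That these letters are missing says only that they are not in these 300 bases. Of the summits at all 72 members with a peak, searched or not, 46 (63.9%) lay in that stretch around the canonical start. It runs from 250 bases before the start to 50 bases from it on. The share over all 9452 genes with a peak was 46.6%.

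Other promoter letters were counted in the same windows. CCGGAA, the core recognised by ETS factors such as GABPA, stood in 34 of the 58 promoters (58.6%) against 24.4% of all promoters. AAGATGGC, the core of YY1, stood in 6 (10.3%) against 4.29%, but in the upstream part alone it stood in 1 (1.72%) against 1.38%. The SP-type GC box GGGCGG stood in 33 (56.9%) against 63.1%. TATAAA was found in 6 (10.3%) against 9.41%. All were searched on both strands, and none of these words contains another. The RefSeq start was a C followed by 4 pyrimidines in 43 of the 58 (74.1%) against 4.68% of all promoters, which was the widest gap among the features searched. Among all promoters searched, 71.4% of those with CCGGAA had a peak, against 46.5% of those without. Of the 34 members with CCGGAA, 32 had a peak, beside 55 of all 58 members searched. The gap seen among all promoters was thus not seen among members. Where members had a peak, it was about as tall with as without these letters. The median was 66.5 fragments at the 32 members with CCGGAA and 61 fragments at 23 members without. The following upstream stretches are shown to set promoters with CCGGAA (capitals, on either strand) and a peak beside one with CCGGAA and none. RPS7 is at chr2:3575110-3575259 (plus strand), RPS14 at chr5:150449740-150449889 (minus) and RPS21 at chr20:62387001-62387102 (plus), where the stretch is limited to bases outside annotated exons.
RPS7: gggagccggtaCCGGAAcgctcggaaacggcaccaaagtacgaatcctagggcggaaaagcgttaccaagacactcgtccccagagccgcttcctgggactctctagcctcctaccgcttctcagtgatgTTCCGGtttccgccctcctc
RPS14: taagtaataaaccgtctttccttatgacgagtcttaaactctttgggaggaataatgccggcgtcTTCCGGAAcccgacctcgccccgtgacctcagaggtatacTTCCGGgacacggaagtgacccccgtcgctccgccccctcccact
RPS21: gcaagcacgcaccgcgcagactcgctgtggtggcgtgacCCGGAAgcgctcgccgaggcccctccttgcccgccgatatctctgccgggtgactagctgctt

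RPS7, mutated in some cases of Diamond-Blackfan anemia, had 106 fragments and its summit directly on the CCGGAA nearest to the start. RPS14, the gene lost in the 5q- syndrome, had 73 fragments with its summit 115 bp from the nearest CCGGAA. RPS21, with CCGGAA at 63 and 134 bases before its start, had no peak within 1 kb.

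Peak height was read as the number of ChIP fragments covering the summit, since each fragment added 0.735 to the deposited pileup. The tallest peaks within 1 kb held a median of 61 fragments at the 69 members (range 25 to 180, middle 50% from 46 to 104), against 50 fragments at all 9126 genes with a peak (range 15 to 442). Of the 69, 47 were taller than the median of all genes, 54 were longer and 48 had a larger fold enrichment. The median length was 786 bp at members and 575.5 bp at all genes, and the median fold enrichment was 7.27 and 5.79. The tallest peak within 1 kb reached 5-fold enrichment at 57 members (74.0%), against 29.2% of all genes. The local input behind these ratios had a median of 5.00 in both sets. From the canonical start the medians at 72 members were 62.5 fragments, 779.5 bp and 8.06-fold. There, 35 members (48.6%) had a height whose exact Poisson 95% interval lay wholly above the median of all genes, which is 50 fragments, against 32.7% of all genes with a peak. A further 28 had an interval that holds that median, so their height could not be told from it at this depth, and 9 lay below it.

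**Figure D1:**
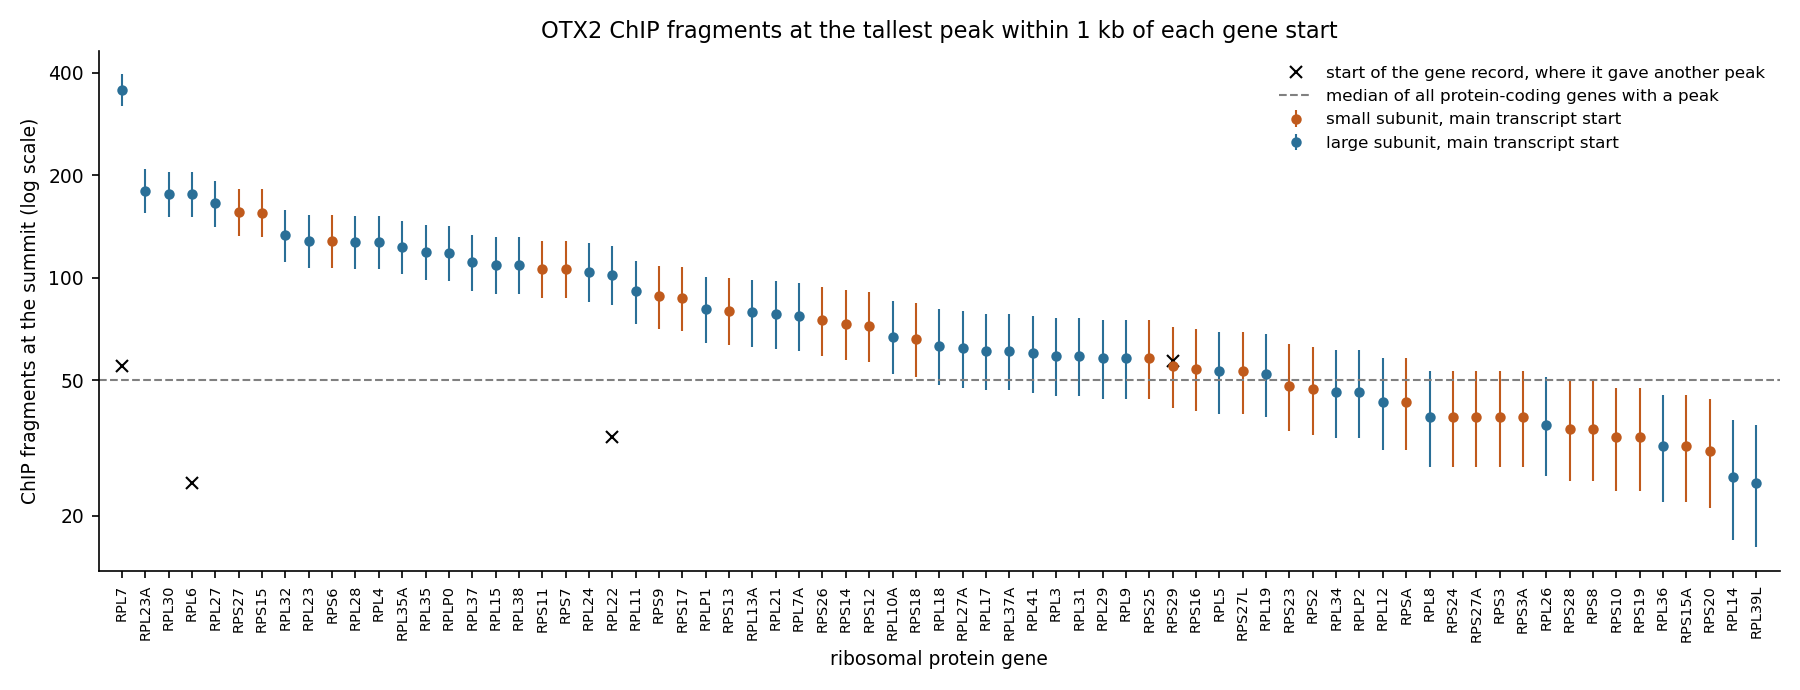
ChIP fragments at the summit (log scale) of the tallest peak within 1 kb of the canonical start, for 71 of the 72 ribosomal protein genes that have one, with exact Poisson 95% intervals and colour by subunit. RPL7 stands alone at 356 fragments, most members lie above the dashed line at 50 fragments, and the crosses mark RPL7, RPL6, RPL22 and RPS29, where the start of the gene record gave another peak.

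**Figure D2:**
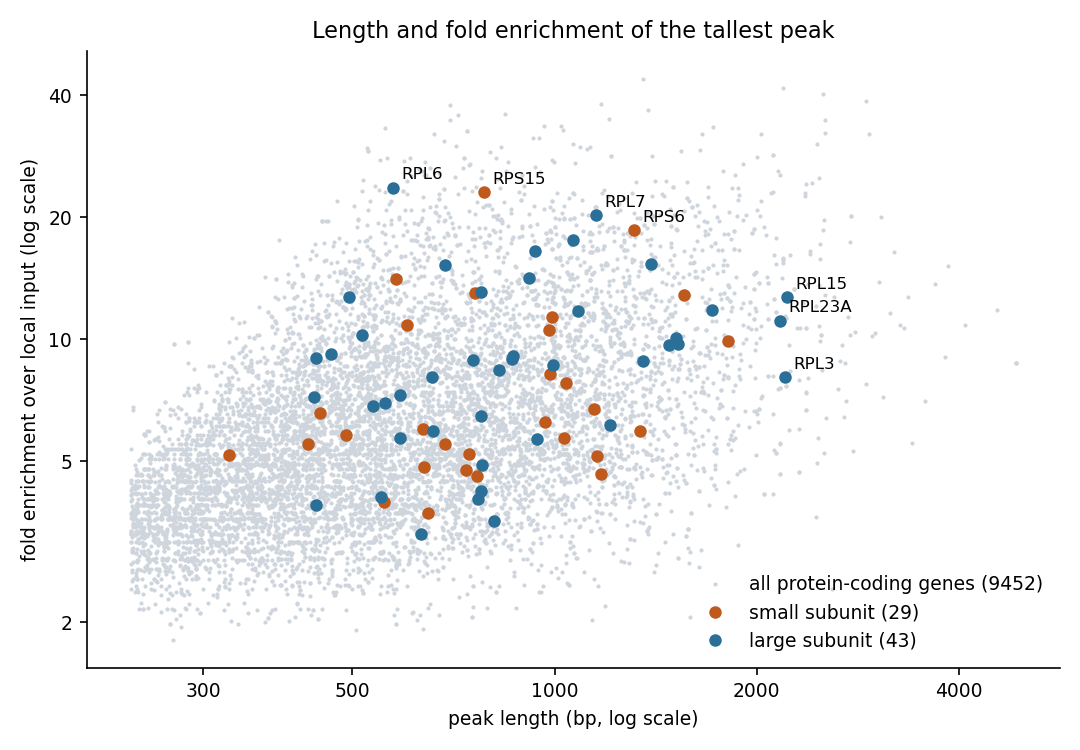
Fold enrichment against peak length (both log scales) for the tallest peak within 1 kb of the canonical start, with 9452 protein-coding genes in grey and ribosomal protein genes in colour. The members spread over the range of the other genes, with RPL6, RPS15 and RPL7 above 20-fold and RPL15, RPL3 and RPL23A over 2 kb long.

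The tallest peak measured from the gene record was that of RPL23A, a protein beside the exit of the nascent chain, with 180 fragments at its summit (exact Poisson 95% interval 155 to 208). It was 11.1-fold enriched and 2163 bp long. RPL30 had 176 fragments but a fold enrichment of 8.41, as its local input of 14.5 was the highest among members. RPL27 had 165 fragments and 15.3-fold enrichment, and RPS27, a zinc finger protein of the small subunit, had 156 fragments and 10.5-fold. These heights overlap within their counting intervals. Spearman's rho between fragments and local input was 0.38 across the 69 members and 0.35 across the 9126 genes with a peak. The part of the local input in these heights was not tested. RPS15 had 155 fragments over a local input of 3.99, the floor of the list, which gave the highest fold enrichment from the gene record, 23.1. RPL32 followed with 133 fragments and 16.5-fold enrichment.

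Some members changed rank with the start that was used. RPL7, with 55 fragments near its gene record, had 356 fragments (interval 320.0 to 395) and 20.2-fold enrichment at its canonical start 2156 bp away, and this interval lay above that of every other member. The start of RDH10, a retinol dehydrogenase gene, lies within 1 kb of that of RPL7, so the peak cannot be assigned to either gene. RPL6 went from 25 fragments to 176 with 23.6-fold enrichment, and RPL22 from 34 to 102 fragments with 15.2-fold. RPL4 went from no peak to 127 fragments, but the start of ZWILCH lies within 1 kb of its own, so this peak cannot be assigned to either gene. RPL7, RPL6, RPL22 and RPL4 have records that begin between 2156 and 19677 bp from the canonical start. Their values from the canonical start were thus read at the start that the annotation marks as representative.

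The lowest peaks from the gene record were those of RPL6, RPL14 with 26 fragments, RPS20 with 31, RPS15A with 32, and RPL22, RPS10 and RPS19 with 34 each. RPS19 is the gene most often mutated in Diamond-Blackfan anemia, and RPS10 belongs to the same disease group. The fold enrichment of RPL14 was 4.03, that of RPS20 4.76, that of RPS15A 3.96, that of RPS10 3.71 and that of RPS19 5.21.

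The longest and the tallest peaks were in part different ones. The longest peaks were those of RPL15 (2220 bp), RPL3 (2206 bp), RPL23A (2163 bp) and RPS26 (1810 bp), with 109, 59, 180 and 75 fragments. RPL3, which reaches the peptidyl transferase centre, thus had a peak about as long as that of RPL23A but with fewer fragments. The shortest were those of RPS23 (327 bp), RPL22 (358 bp), RPS28 (429 bp) and RPL7A (438 bp). Across the 69 members, Spearman's rho between fragments and length was 0.35, and across the 9126 genes it was 0.50, where all points share 1 ChIP library and 1 input. Peaks of at least 1000 bp were found at 21 of the 69 members, 30.4%, and at 19.3% of all genes with a peak.

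Summits clustered just upstream of the start. From the canonical start the median summit position was −107 bp at members and −116 bp at all genes. The summit was upstream at 61 of 72 members (84.7%) against 73.1% of all genes with a peak, and it was within 250 bp of the start at 51 (70.8%) against 51.7%. From the gene record the median was −59 bp, with 48 summits upstream and 21 downstream. The summits farthest from the gene record were those of RPL21 at +1177 bp, RPL41 at −1037 bp and RPL6 at −1000 bp. The peak of RPL21 covered the TSS and ran out of the window downstream, and that of RPL41 reached into the window from outside.

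**Figure D3:**
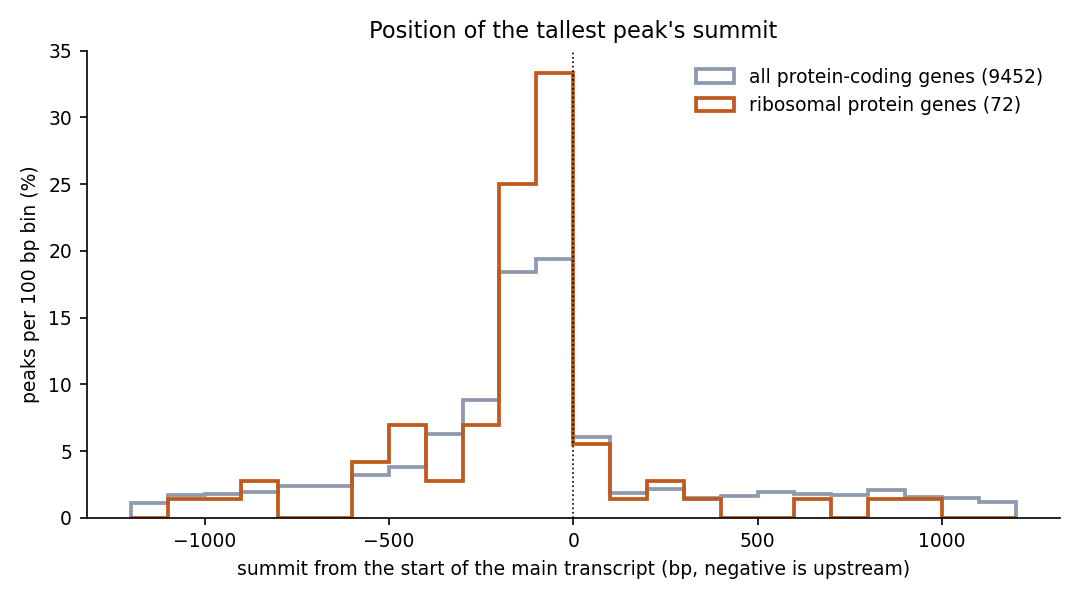
Position of the summit of the tallest peak relative to the canonical start (bp, negative is upstream), as the percent of peaks per 100 bp, for 72 ribosomal protein genes and 9452 protein-coding genes. Both have their highest bins in the 200 bp before the start, and 84.7% of the ribosomal protein summits were upstream; 355 genes with summits beyond 1200 bp are not drawn.

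Among the members with special roles, the stalk proteins RPLP0, RPLP1 and RPLP2, which recruit the translational GTPases, differed in height. RPLP0, the base of the stalk, had 118 fragments (interval 97.7 to 141) and a summit at −5 bp from the gene record, with 17.6-fold enrichment. RPLP1 had 81 fragments (interval 64.3 to 101) at −797 bp, and RPLP2 had 46 (interval 33.7 to 61.4) at −35 bp. The intervals of RPLP0 and RPLP2 did not overlap. RPSA, the small subunit protein also known as the laminin receptor, had 43 fragments and 5.99-fold enrichment.

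The genes chosen for their link to Diamond-Blackfan anemia ranged from 34 to 123 fragments, and this choice does not hold every gene of that disease. RPL35A had 123 fragments, RPL11 had 91, RPS26 had 75, RPL5 had 53 and RPS19 had 34. RPL5 and RPL11, which with 5S rRNA bind MDM2 when ribosome assembly fails, had fold enrichments of 5.71 and 10.3. The counting intervals of RPL11 (73.3 to 112) and RPL5 (39.7 to 69.3) did not overlap.

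There were 8 members without a peak within 1 kb of the gene record, and those described here were of different kinds. RPL4, RPL36 and RPL39L have records that start over 15 kb from the canonical start, where each had a peak, of 127, 32 and 25 fragments. RPL3L and RPL10L are paralogs with restricted expression, the first in skeletal and cardiac muscle and the second in testis, and their nearest peaks were 5460 and 7981 bp away. RPL3L had none within 1 kb of its canonical start either. The broadly expressed RPL13 and RPS21 also had no peak within 1 kb of either start. Their nearest peaks were 1177 and 9288 bp from the gene record, and the peak nearest to RPL13 had 36 fragments with 3.92-fold enrichment. RPL13 is the first member outside the window and RPL39L, at 2284 bp, the next. Just inside were RPS23, whose peak began 636 bp from the TSS, and RPL6 at 604 bp.

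The paralogs RPL3L and RPS27L were not like their counterparts RPL3 and RPS27. RPL3 had 59 fragments where RPL3L had no peak. RPS27L, a paralog of RPS27 that is induced by p53, had 53 fragments (interval 39.7 to 69.3), against 156 at RPS27 (interval 132 to 182). RPL39L had 25 fragments at its canonical start. Without RPL3L, RPL10L, RPL39L and RPS27L, 68 of 73 members (93.2%) had a peak from the gene record.

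Large subunit peaks were taller than small subunit peaks in the median, 62.5 against 54 fragments from the gene record and 77 against 54 from the canonical start. The medians of fold enrichment were 8.53 and 6.26 from the gene record. The local input was 5.38 at large and 4.75 at small subunit genes, and its part in the difference was not tested. With 1 library this difference has no test, and the middle 50% of both subunits overlapped, at 52.8 to 109.5 fragments for the large and 39 to 80 for the small subunit.

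The share with a peak was high both with and without a neighbouring gene start. For 16 members the canonical start of another protein-coding gene or read-through record lies within 1 kb of their own, such as MED22 beside RPL7A, NKIRAS1 beside RPL15, ARPC5L beside RPL35 and VPS52 beside RPS18. From the canonical start all of these 16 had a peak, and of all genes with such a neighbour 74.1% did. Of the 61 members with no such neighbour, 56 (91.8%) had a peak, against 45.7% of all such genes. Many ribosomal protein introns encode small nucleolar RNAs. A small RNA gene lies inside 31 members, and from the gene record 29 of these had a peak, against 40 of the 46 members without one and 57.0% of all 2132 genes that host a small RNA.

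Peaks were also counted over the whole window used by the study, from 5 kb upstream to 2 kb downstream. There 71 members (92.2%) had at least 1 peak, against 58.5% of all genes, so the wider window added 2 members. More than 1 peak within 1 kb of the gene record was found at 8 members, 10.4%, close to the 8.58% of all genes. Inside the gene record but over 1 kb from its start, 43 members had a summit, 55.8%, against 58.2% of all genes, although the median gene length was 5548 bp for members and 28006 bp for all genes. These 43 include members such as RPL4 whose canonical start lies inside a longer record.

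Other gene sets, taken by symbol and mostly with housekeeping roles, were placed beside the ribosomal protein genes. Genes with restricted expression were not left out of these sets. Mitochondrial ribosomal proteins, which build the ribosome of the organelle from nuclear genes, had a peak from the gene record in 56 of 78 cases (71.8%), with a median of 46.5 fragments and 5.36-fold enrichment. The tallest was MRPS28 with 179 fragments, and 22 of the 78 had none. Translation initiation factors were taken by the start of the symbol, which also takes in regulators such as EIF2AK1 and EIF4EBP1. This set had a peak in 43 of 53 cases (81.1%), with a median of 45 fragments. EIF1, a factor in start codon selection, was among the tallest at 162. Elongation factors had one in 3 of 7 from the gene record and in 5 of 7 from the canonical start, where EEF1A1, which delivers aminoacyl-tRNA, reached 98 fragments. The 2 without one from the canonical start were EEF1A2 and EEF1E1. EEF1E1 is in the set by its symbol but belongs to the aminoacyl-tRNA synthetase complex. Ribosome assembly factors had one in 15 of 19 (78.9%) from the gene record and in 17 of 19 (89.5%) from the canonical start. Their peaks were taller than those of the ribosomal proteins in the median from the gene record, at 84 fragments and 10.4-fold. From the canonical start these factors had medians of 69 fragments and 7.36-fold. Among them RRS1 had 151 fragments, NOP14 115 and the fibrillarin gene FBL 76, while NOP56 had no peak within 1 kb of either start.

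Outside translation, proteasome subunits had a peak in 26 of 38 cases (68.4%) and subunits of respiratory complex I in 26 of 32 (81.2%), with medians of 45.5 and 49.5 fragments. The proteasome set includes PSMA8, PSMB8, PSMB9, PSMB10 and PSMB11, subunits with restricted expression. None of these had a peak within 1 kb of either start. All 6 ribosomal protein or ubiquitin fusion genes that the symbol rule does not take, such as FAU, RPL36AL, RPL22L1, RPL26L1 and RPL7L1, had a peak. From the gene record, all of these sets except the elongation factors had a larger share with a peak than all genes. The Wilson intervals of the ribosomal protein share (80.8% to 94.6%) and of the initiation factors (68.6% to 89.4%), assembly factors (56.7% to 91.5%) and complex I (64.7% to 91.1%) overlapped. So did that of the proteasome, which ended at 80.9%, while that of the mitochondrial ribosomal proteins ended at 80.6%. From the canonical start the ribosomal protein interval began at 85.7%, that of the mitochondrial ribosomal proteins ended at 85.9% and that of the proteasome at 85.0%, so which of these sets overlapped depended on the start. These intervals treat the genes of a set as independent draws, so their overlap is no test between sets.

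**Figure D4:**
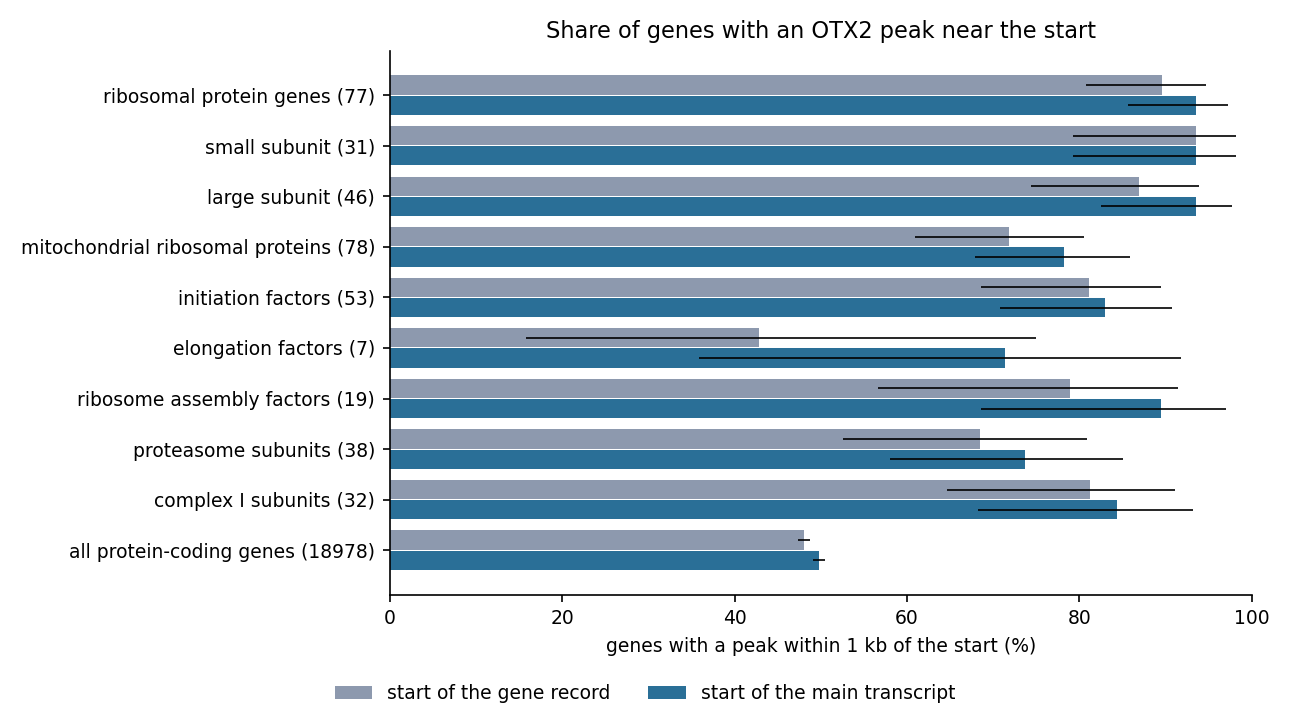
Percent of genes with an OTX2 peak within 1 kb of the start, from the gene record and from the canonical start, for each gene set (number of genes in brackets) with Wilson 95% intervals. The ribosomal protein genes lie at 89.6% and 93.5%, and all protein-coding genes at 48.1% and 49.8%.

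Ribosomal protein genes on the X chromosome lie outside the autosomal set. All 4 of them carried a peak within 1 kb of the gene record, against 23.8% of the 841 protein-coding genes on that chromosome. The peaks were those of RPL10 with 35 fragments, RPS4X with 37, RPL39 with 43 and RPL36A with 56, all from 5.36-fold to 8.09-fold enriched. RPL36A had the tallest of these, and all but RPL36A lay below the median of 50 fragments of the autosomal genes with a peak.

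The ChIP library held 84980793 fragments, 61259377 after duplicate removal, and the input library held 32292980, 22521186 after duplicate removal. In all, 137412 peaks were listed, with a median of 53 fragments, 440 bp and 6.10-fold enrichment. The ChIP library was thus 2.72 times as deep as the input library.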

How the data were processed

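The authors aligned the reads of both libraries with bowtie2 2.2.4 (GRCh38). Their peak caller was MACS2 2.1.0.20140616, run on the ChIP with the input as control (1 fragment kept per position, q-value cutoff 0.05). The study states that blacklisted regions were masked, and whether the list used here is the masked one could not be traced. The deposited pileup is a signal, the scaled coverage at the summit. The deposited fold enrichment is the pileup as a ratio to the local input, each with 1 added. The deposited −log10 q-value was used as an alternative threshold. Pileups were read back as whole ChIP fragments (largest deviation 0.005), and the local input was computed from pileup and fold enrichment.

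Gene positions were the GRCh38 positions recorded in GENCODE release 44, with no conversion between builds. A gene had a peak where at least 1 bp lay within 1 kb of the TSS, and its values are those of the tallest such peak. Shares have Wilson 95% intervals and fragments exact Poisson 95% intervals. RefSeq promoters matched 60 of 77 members by symbol, 17 did not match, and 58 began within 100 bp of the canonical start.

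The members and gene lists were chosen with earlier results of these data known. Named genes were those without a peak, the 6 tallest and 6 lowest, the 4 longest and 4 shortest peaks, the 3 farthest summits, the members nearest to the window's edge, RPSA and the stalk genes, 5 Diamond-Blackfan anemia genes and the paralogs RPL3L, RPL10L, RPL39L and RPS27L. Other genes named, among them those with OTX2 letters, RPS7, RPS14 and RPL7, and the small RNA hosts, the 100 bp limit on promoters, the X-linked genes and the pseudogenes were chosen after their values were seen. Some genes that these rules cover are counted but not reported here by name. Tables were handled with pandas 2.3.3 and numpy 2.4.6 in Python 3.11.15, intervals computed with scipy 1.17.1, and plots drawn with matplotlib 3.10.9. Peak counting was tested on simulated peaks, where 200 of 200 genes given a peak were found.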

Additional observations from a re-analysis of the deposited data

How the results depend on the processing

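No paired analysis was possible because each group held a single library. The share of ribosomal protein genes with a peak ranged from 74.0% to 93.5% over 13 alternatives. It was 74.0% with peaks of at least 5-fold enrichment, and 79.2% without peaks whose local input reached 2 times its floor, a choice made after seeing the data; both remove peaks by construction. The share of all genes, 48.1% in the main setting, ranged from 29.4% to 58.5% over 12 alternatives. It was 42.9% within 500 bp, 53.7% within 2 kb and 58.5% from 5 kb upstream to 2 kb downstream. With the summit inside the window it was 45.0%, with 50% of the peak inside 45.5%, at a −log10 q of at least 5 42.8%, and at 5-fold or more 29.4%. From the canonical start it was 49.8% and from any transcript start 58.1%. It was 43.0% without shared windows, 49.1% without chromosome 7 and 41.1% without high local input. The members' share was above that of all genes under each of these. The median summit position moved from −59 to −107 bp with the canonical start, whose construction sets it. The 7 other gene sets together had 175 genes with a peak, and 107 at 5-fold or more. The median fold enrichment of members stayed between 7.202 and 8.65, the median length between 777 and 867 bp and the median pileup between 43.4 and 53.3 under 14 alternatives each. The count of promoters with OTX2 core letters was 6 in the upstream part alone too.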

Other observations

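Processed pseudogenes of ribosomal proteins are retrotransposed copies of the messenger RNA, and so lack the promoter of the parent gene. Of 1494 such autosomal copies, 134 (8.97%) had a peak within 1 kb of their start, against 824 of 9729 (8.47%) for processed pseudogenes of all genes. A peak overlapped the copy itself in 49 of the 1494, 3.28%, against 4.04% for all processed pseudogenes. Within 1 kb, the copies thus had a share of peaks close to that of other processed pseudogenes (8.38%), where the parent genes had 89.6%. The cause of this difference, and how reads map to such copies, were not tested.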
